A study of Mus musculus with 4 samples.

Results

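The RNAs described here are the abundant non-coding transcripts of cultured mouse microglia: 96 genes whose rows in the deposited count table carry a non-coding RefSeq accession, whose symbol has no coding accession in the table, and whose mean over the 4 libraries was at least 50 counts, ribosomal RNA rows left out. They were chosen from 3725 non-coding genes, 984 of them without a count, in a table of 24148 genes. All 96 reached the minimum for testing, a mean of 10 counts. The choice used the mean over all libraries, so abundance itself is not a finding. A member low in controls, such as Mx1 with control counts of 1 and 1, entered through its LPS counts. Such members add to the counts of higher calls, also by class, so these counts are partly set by the rule. The last members inside the limit were 2210039B01Rik, Gm12338 and Ipw with mean counts of 53.0, 52.0 and 51.25, and the first outside were Rpl14-ps1, Snhg15 and Gm15645 with 49.0, 48.25 and 48.0. The cells were primary microglia, detached by shaking from mixed cultures of glia. They were treated with lipopolysaccharide (LPS), a bacterial cell wall component sensed through Tlr4, at 10 ng/ml for 4 h (2 libraries) or left as controls (2 libraries). The labels give no strain, age or genotype. Nothing in them tells if the replicates of a group are distinct cultures or animals, so the p-values below reflect the scatter of these libraries alone, and that scatter could be technical.

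Long non-coding RNAs (lncRNAs) are transcribed and spliced much like messenger RNAs, and many lie opposite or beside a coding gene. Small nucleolar RNAs (snoRNAs) guide chemical modification of ribosomal RNA and are mostly cut from the introns of host genes, whereas primary transcripts called microRNA host genes are cut to release microRNAs. In macrophages and microglia, Tlr4 signalling induces both coding genes and lncRNAs, and type I interferon made by the cells induces a further set.

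The LPS libraries held 5095630 and 4592474 counts in replicates 1 and 2, and the control libraries 3617176 and 4080568. Members took 2.94% and 3.85% of counts in the LPS libraries and 2.96% and 4.32% in the control libraries. Mir6236, a row annotated as a microRNA hairpin, made up the largest part of this. Which RNA the reads of this row come from was not tested. Without Mir6236 the shares were 1.77% and 2.55% in LPS libraries and 1.73% and 3.02% in control libraries. Marker sums of other cell types went with the replicate number. Oligodendrocyte-lineage markers (7 of 10 tested) summed to 415 and 60.4 CPM in LPS replicates 1 and 2 and to 405 and 69.2 CPM in control replicates 1 and 2, where CPM stands for TMM-scaled counts per library size. Astrocyte markers (8 of 9 tested) summed to 136 and 449 CPM in LPS libraries and to 120 and 321 CPM in control libraries, and fibroblast and pericyte markers (5 of 8 tested, Pdgfrb at 0) to 94.3 and 334 CPM and to 79.9 and 306 CPM. Microglia markers (10 of 12 tested, Itgam at 0) summed to 2850 and 2510 CPM in LPS libraries and 3681 and 3257 CPM in control libraries. Neuron markers (3 of 8 tested) summed to 54.4 and 45.8 CPM in LPS libraries and 54.9 and 46.9 CPM in control libraries, and endothelial markers (2 of 5 tested, Pecam1 and Tek at 0) to 11.5 and 14.9 CPM and to 6.05 and 15.2 CPM. In each of these lists 0 genes passed by edgeR. Of the 10 tested microglia markers, 6 had an unadjusted edgeR p under 0.05, 5 of them lower in LPS libraries, and 1 passed by DESeq2. In the other lists 0 did by either measure. Of all genes tested, 21.3% had an unadjusted edgeR p under 0.05. The part of cell mixture in the results was not tested. Fewer cells of a type and less RNA per cell cannot be told apart in such bulk samples.

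With edgeR's quasi-likelihood test and an adjusted p under 0.05 over all genes tested, 16 of the 96 members were higher in LPS libraries and 2 were lower. Over all 9548 genes tested, which had a mean of at least 10 counts, 8.34% were called, 6.55% higher and 1.79% lower. With a minimum mean of 50 counts, the limit for members, 564 of 5769 genes were called higher and 237 lower. The 16 spread over the antisense (5 of 14), pseudogene (4 of 19), intergenic (3 of 26), sense-overlapping (2 of 6), microRNA (1 of 3) and host gene (1 of 12) classes, and the 2 lower ones were 1 host gene and 1 pseudogene. In the small nucleolar class, 0 of 11 passed, and in the class of other small structural RNAs 0 of 5. By DESeq2 and by limma-trend the counts were also 0 in both, with the replicate number as a block they were 4 of 11 and 1 of 5, and at an unadjusted edgeR p under 0.05 they were 2 of 11 and 1 of 5, against 21.3% of all genes tested. Median log2 fold changes of LPS over control were 0.60 for antisense, 0.46 for sense-overlapping, 0.45 for small nucleolar, 0.38 for microRNA, 0.30 for other small structural, 0.01 for host gene, -0.24 for pseudogene and -0.46 for intergenic members, beside -0.05 for all genes tested. Scaling by total counts in place of TMM put the median of all genes at -0.48 and split the members' calls into 13 higher and 12 lower. Under that scaling 24 members changed sign, so a small difference has no settled direction here.

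**Figure D1:**
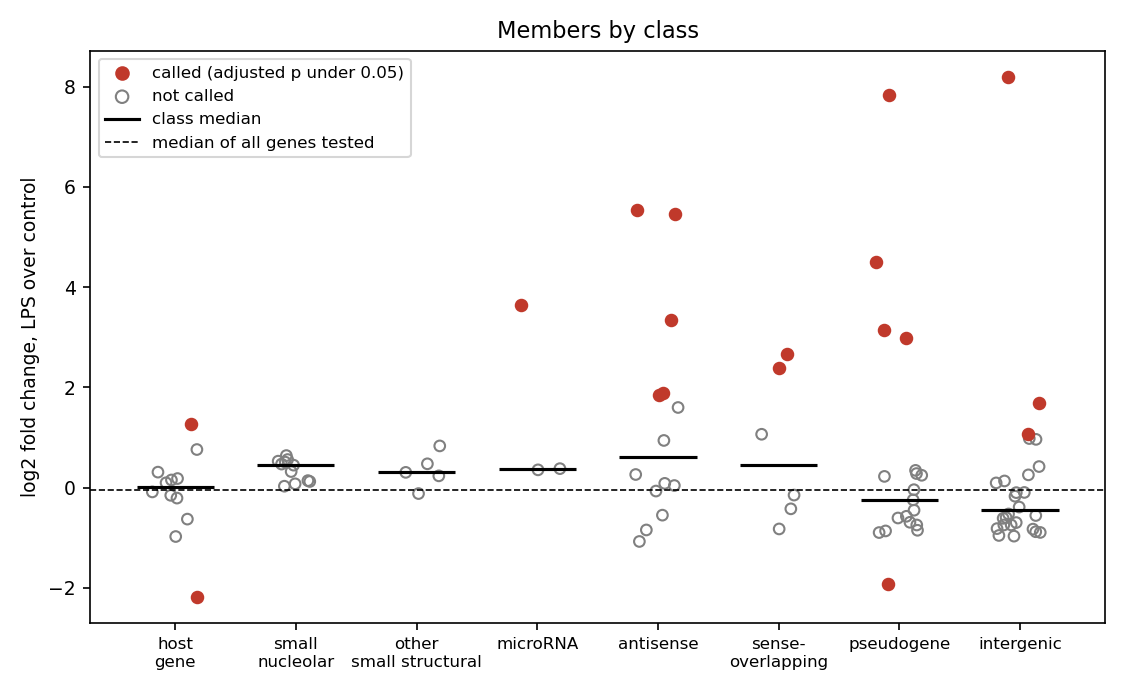
Each circle is 1 of the 96 members, placed by class; the vertical axis is the log2 fold change of LPS over control. Filled circles passed the edgeR test, short lines are class medians and the dashed line is the median of all genes tested, -0.05. Called members stand in 6 of the 8 classes, and both small RNA classes hold open circles alone. For Mx1, the highest pseudogene point, the fitted value rests on control counts of 1 and 1.

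Among intergenic lncRNAs, AW112010 changed most. AW112010, an LPS-inducible RNA from which a peptide is translated in mouse macrophages, had 1136 and 934 CPM in LPS replicates 1 and 2, against 4.21 and 2.88 CPM in the controls. In counts this was 4758 and 3895 in LPS libraries and 16 and 15 in control libraries, so the groups lay far apart. The log2 fold change was 8.20 ± 0.32 (SE; edgeR adjusted p = 0.0003). Per kilobase of its transcript of 770 bases, AW112010 reached 1475 and 1213 CPM in LPS libraries, above the lncRNA Malat1, which had 286 and 599 CPM per kilobase in the same libraries. In the control libraries the order was the other way round, with 5.46 and 3.75 CPM per kilobase for AW112010 and 303 and 504 for Malat1. The nearest coding gene, Ms4a8a, lies 16905 bases away and had 1 and 0 counts in LPS libraries and 10 and 2 in control libraries.

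AI504432 and AI662270 moved less and were closely matched between replicates. AI504432 had 518 and 538 counts in LPS libraries and 152 and 200 in control libraries, a log2 fold change of 1.69 ± 0.20 (edgeR adjusted p = 0.0070). Kcna3, which encodes a voltage-gated potassium channel found in microglia and T cells, lies 1434 bases away. Kcna3 counts were 123 and 171 in LPS libraries and 29 and 54 in control libraries (log2 fold change 1.95 ± 0.32, edgeR adjusted p = 0.020; without LPS replicate 2 it was 1.70 with an adjusted p of 0.11, with total-count scaling 1.52 and 0.060, and the adjusted p ranged from 0.00029 to 0.11 over all settings without a replicate block). AI662270 had 119 and 119 CPM in LPS libraries and 57.0 and 55.8 CPM in control libraries, a log2 fold change of 1.08 ± 0.19 (edgeR adjusted p = 0.027). It was not called whichever library was left out, with adjusted p of 0.18 and 0.16 without LPS replicate 1 or 2 and of 0.061 and 0.089 without control replicate 1 or 2, while the log2 fold change stayed between 1.03 and 1.09. With total-count scaling it was 0.65 (adjusted p = 0.14). Over all settings without a replicate block its adjusted p ranged from 0.0064 to 0.18. Slfn3, a Schlafen family gene 8422 bases away, had 162 and 222 counts in LPS libraries and 22 and 42 in control libraries (log2 fold change 2.71 ± 0.32, edgeR adjusted p = 0.0070).

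**Figure D2:**
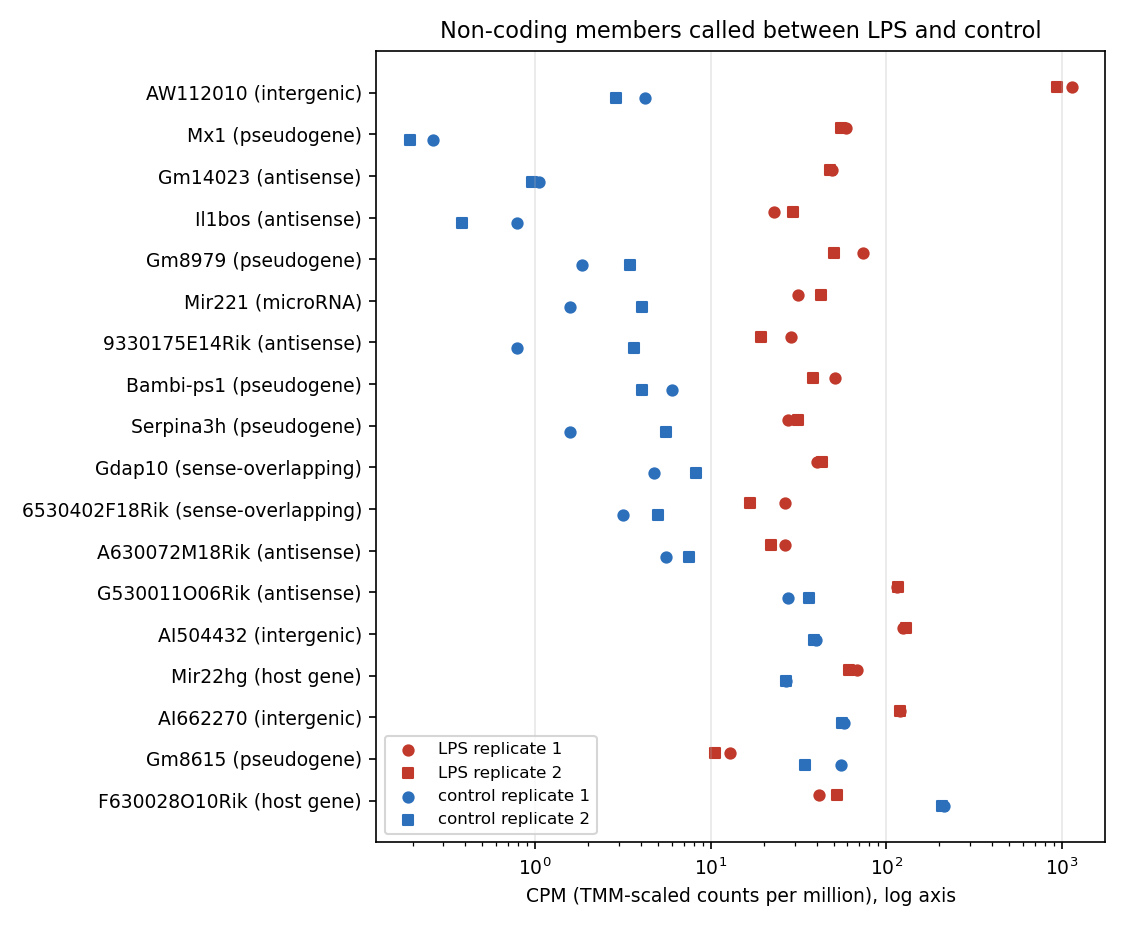
CPM of the 18 called members in each library on a log axis, LPS libraries in red and control libraries in blue, replicate 1 as circles and replicate 2 as squares. In 16 rows both LPS libraries lie right of both controls, from AW112010 at 934 and 1136 CPM to AI662270 at 119 CPM, and in the rows of Gm8615 and F630028O10Rik they lie left.

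Of the antisense members, Gm14023 and Il1bos lie opposite Il1a and Il1b, the genes of the inflammatory cytokines interleukin-1 alpha and beta. Gm14023 had 204 and 198 counts in LPS libraries and 4 and 5 in control libraries (log2 fold change 5.55 ± 0.31, edgeR adjusted p = 0.00067). Il1bos had 96 and 122 counts in LPS libraries and 3 and 2 in control libraries (log2 fold change 5.47 ± 0.45, edgeR adjusted p = 0.0023). Without control replicate 1, Il1bos had only 2 control counts left, giving a ratio of counts of 6.08 on the log2 scale (95% interval 4.21 to 9.14, Clopper-Pearson, counting error only). Il1a had 18666 and 20105 counts in LPS libraries and 32 and 28 in control libraries (log2 fold change 9.40 ± 0.35), and Il1b had 26341 and 33962 in LPS libraries and 71 and 114 in control libraries (8.47 ± 0.30; edgeR adjusted p = 0.00029 for both). Both antisense RNAs thus changed in the direction of the cytokine gene opposite, by a smaller factor. Exons of Gm14023 overlap those of Il1a by 222 bases, and those of Il1bos overlap Il1b by 20 bases. The strand setting of the counting is not given in the sources used here, so reads of a gene and of its antisense partner cannot be told apart, and this holds for each antisense pair below.

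9330175E14Rik lies opposite Nlrc5, a transactivator of major histocompatibility complex class I genes. 9330175E14Rik had 120 and 80 counts in LPS libraries and 3 and 19 in control libraries (log2 fold change 3.34 ± 0.62, edgeR adjusted p = 0.032), and the controls lay far apart. With LPS replicate 1 or 2 left out it was not called (adjusted p = 0.12 and 0.058), and over all settings without a replicate block its adjusted p ranged from 1.6e-05 to 0.12. Without control replicate 1 the log2 fold change was 2.69, and without control replicate 2, with 3 control counts left, the ratio of counts was 4.92 on the log2 scale (95% interval 3.36 to 7.21, Clopper-Pearson). Nlrc5 had 2098 and 1571 counts in LPS libraries and 103 and 124 in control libraries, a log2 fold change of 4.11 ± 0.25 (edgeR adjusted p = 0.00087).

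G530011O06Rik, opposite Mid1 and with start sites on both X and Y, had 116 and 116 CPM in LPS libraries and 27.6 and 36.2 CPM in control libraries. The log2 fold change was 1.86 ± 0.23 (edgeR adjusted p = 0.0087). Mid1 itself had 0 and 1 counts in LPS libraries and 0 and 0 in control libraries, although 951 exon bases overlap. A630072M18Rik had 111 and 92 counts in LPS libraries and 21 and 39 in control libraries (log2 fold change 1.88 ± 0.31, edgeR adjusted p = 0.020). A630072M18Rik was not called when LPS replicate 1 was left out (1.76, adjusted p = 0.13), nor with replicate 2 of LPS left out (2.02, 0.073) or total-count scaling (1.44, 0.060), and its adjusted p ranged from 0.0014 to 0.13 over all settings without a replicate block. Rsbn1l, which runs opposite it with 5142 bases of exon overlap, had 586 and 503 counts in LPS libraries and 283 and 384 in control libraries and did not pass (log2 fold change 0.81 ± 0.20, edgeR adjusted p = 0.074).

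Of the 9 antisense members that did not pass, AV051173 had the largest log2 fold change. AV051173 had 30.3 and 22.3 CPM in LPS libraries and 12.6 and 5.00 CPM in control libraries (1.60 ± 0.48, edgeR adjusted p = 0.13). Without control replicate 1 it passed, with a log2 fold change of 2.38 and an adjusted p of 0.0087; over all settings without a replicate block the adjusted p ranged from 0.0087 to 0.42. It runs opposite Prdx1, a peroxiredoxin gene with 42462 and 41436 counts in LPS libraries and 10906 and 16564 in control libraries (1.73 ± 0.19, edgeR adjusted p = 0.0056). Xist, the RNA that coats the inactive X chromosome, had 150 and 136 CPM in LPS libraries and 155 and 123 CPM in control libraries, and the groups overlapped. Pisd-ps1 had 48.2 and 37.7 CPM in LPS libraries and 86.5 and 67.9 CPM in control libraries and did not pass (log2 fold change -0.84 ± 0.25, edgeR adjusted p = 0.12). Its coding relative Pisd, a phosphatidylserine decarboxylase gene 94.15% identical over 1128 bases, had 383 and 345 counts in LPS libraries and 206 and 240 in control libraries (0.80 ± 0.21, edgeR adjusted p = 0.092), so the values of these similar sequences lay on opposite sides of 0.

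Sense-overlapping members share a strand with a coding gene. Gdap10, within Nampt, had 40.3 and 43.2 CPM in LPS libraries and 4.73 and 8.27 CPM in control libraries (log2 fold change 2.66 ± 0.34, edgeR adjusted p = 0.0090). Nampt, the enzyme of the salvage route to NAD, had 6542 and 6462 counts in LPS libraries and 987 and 1795 in control libraries (2.36 ± 0.22, edgeR adjusted p = 0.0033). Whether Gdap10 counts are reads of unspliced Nampt RNA was not tested. 6530402F18Rik had 26.5 and 16.8 CPM in LPS libraries and 3.15 and 5.00 CPM in control libraries (2.38 ± 0.41, edgeR adjusted p = 0.024). Without LPS replicate 1 the log2 fold change of 6530402F18Rik was 2.03 and its call was lost (adjusted p = 0.13; range 0.00038 to 0.13 over all settings without a replicate block). Ntng2, which shares 546 exon bases with it, had 1 and 5 counts in LPS libraries and 0 and 1 in control libraries.

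**Figure D3:**
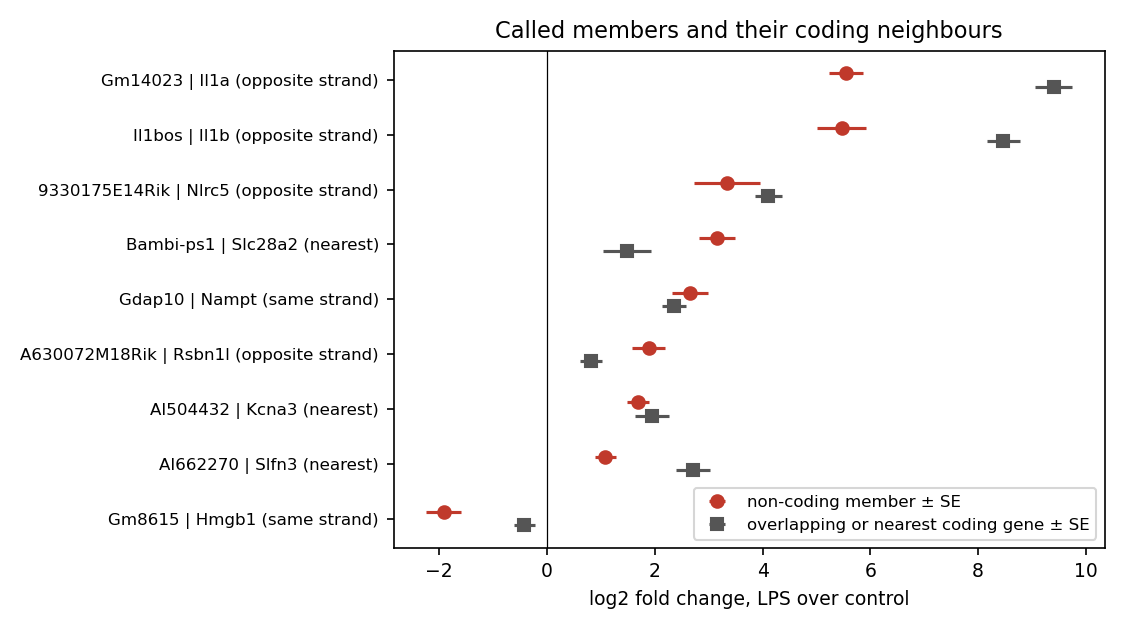
Log2 fold change of LPS over control, with its standard error, for called members (red circles) and for the overlapping or nearest coding gene (grey squares) where both were tested. Il1a, Il1b and Nlrc5 stand right of the antisense RNA opposite them, and Nampt stands beside Gdap10 at 2.36. Mx1 and Serpina3h are not drawn, because for each pair 1 control value rests on a few counts.

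Of the 18 called members, 11 had a neighbour that could be tested, and 7 of these neighbours were called, each higher: Il1a, Il1b, Nlrc5, Nampt, Slfn3, Kcna3 and Serpina3g. Of the other neighbours, 4 were tested and not called, 6 were under the minimum for testing and 1 is not in the table. Of 36 tested neighbours of the 78 uncalled members, 2 were called higher and 1 lower, and 8.34% of all genes tested were called. The difference between these shares was not tested, and overlapping pairs may share reads. As each pair was measured in the same 4 libraries, these values stand side by side and no correlation is given.

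RefSeq start sites (GRCm38.p6) were found for 9 of the 16 higher members, with windows of 300 bases, 250 before and 50 after the start. Both strands were searched for an NF-kB-type motif, an interferon-stimulated response element motif, TGANTCA (AP-1) and TGACGTCA (CRE), and 0 of their 10 windows held any of them; over all 32817 windows the shares were 1.20%, 3.43%, 7.81% and 1.79%. A broader pattern, the kappaB consensus GGGRNNYYCC (R is A or G, Y is C or T), was searched after the AW112010 window had been seen. Its letters overlap those of the first motif. It was found in 5 of the 10 windows, or 4 of 9 without AW112010, beside 5 of the 39 windows of the 36 uncalled members with a start site and 8.46% of all windows. These are descriptions of letters, not of binding. The 5 stretches follow with the matched bases in capitals, at chr19:11050612-11050651 (minus strand), chr2:129297291-129297331 (plus), chr5:20950859-20950898 (plus), chr8:94435197-94435236 (minus) and chr2:29253104-29253143 (minus).
AW112010: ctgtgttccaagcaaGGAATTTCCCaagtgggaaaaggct
Gm14023: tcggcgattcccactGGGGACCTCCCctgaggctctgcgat
A630072M18Rik: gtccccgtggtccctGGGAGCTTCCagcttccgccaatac
9330175E14Rik: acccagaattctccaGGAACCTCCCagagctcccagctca
6530402F18Rik: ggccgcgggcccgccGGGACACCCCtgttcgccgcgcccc
The matches began 70, 64, 115, 118 and 135 bases before the start site, in that order, and Gm14023 held a pair of overlapping matches.

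Of 12 host genes, 1 was called higher and 1 lower, and of 3 microRNA hairpins 1 was called higher. F630028O10Rik, the primary transcript of miR-223, a microRNA typical of myeloid cells, was the lower of the called host genes, with 41.3 and 52.0 CPM in LPS libraries and 214 and 208 CPM in control libraries. Its log2 fold change was -2.18 ± 0.22 (edgeR adjusted p = 0.0042), a 4.52-fold lower level in LPS libraries. Mir22hg, the primary transcript of miR-22, had 67.8 and 60.9 CPM in LPS libraries and 26.8 and 26.7 CPM in control libraries, a log2 fold change of 1.26 ± 0.21 (edgeR adjusted p = 0.023). Mir22hg was not called when LPS replicate 1 (1.19, adjusted p = 0.19), LPS replicate 2 (1.35, 0.11) or control replicate 2 (1.23, 0.060) was left out, nor with total-count scaling (0.83, 0.095), and its adjusted p ranged from 0.0037 to 0.19 over all settings without a replicate block. F630028O10Rik passed in each of those settings, with an adjusted p of at most 0.035. Mir221, a hairpin on the X chromosome, had 132 and 176 counts in LPS libraries and 6 and 21 in control libraries. The log2 fold change of Mir221 was 3.65 ± 0.46 (edgeR adjusted p = 0.0090), and 4.49 without control replicate 2. Mir222, which lies beside it, was under the minimum for testing, with 8 and 14 counts in LPS libraries and 1 and 4 in control libraries.

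The mature microRNAs of these loci are given here because Mir221 and Mir222 share a seed, the bases that pair with targets. The sequences are RefSeq's (GRCm38.p6), with bases 2 to 8 in capitals. They lie at chrX:19146307-19146329 (minus strand), chrX:19146901-19146923 (minus), chrX:96242884-96242905 (plus) and chr11:75463772-75463793 (plus).
miR-221-3p: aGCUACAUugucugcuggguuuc
miR-222-3p: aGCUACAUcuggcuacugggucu
miR-223-3p: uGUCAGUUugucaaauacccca
miR-22-3p: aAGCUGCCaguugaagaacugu
The seed GCUACAU occurs in 3 of the mature mouse microRNAs in the RefSeq table, the third being miR-1928. Mir223 and Mir22 hairpin rows had 0 counts in each of the 4 libraries, while their host transcripts were counted. The libraries were made from fragmented RNA, so a row of a hairpin or a host transcript does not measure the mature microRNA.

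Among the other microRNA rows, Mir6236 had 14243 and 14290 CPM in LPS libraries and 11776 and 10164 CPM in control libraries and did not pass. Mir6516 had 11.9 and 16.1 CPM in LPS libraries and 10.5 and 11.3 CPM in control libraries. The 7 host genes of snoRNAs (Gas5, Snhg1, Snhg5, Snhg8, Snhg14, Rian and 2410006H16Rik) gave 0 calls by edgeR, DESeq2 and limma-trend. At an unadjusted edgeR p under 0.05 there were 2, a share of 28.6% beside 21.3% of all genes tested. Gas5 had 49.7 and 55.4 CPM in LPS libraries and 43.9 and 54.2 CPM in control libraries. Snhg14, an imprinted host of many snoRNAs, had 86.4 and 80.1 CPM in LPS libraries and 80.4 and 96.2 CPM in control libraries. Groups overlapped for both. Snhg5 had 13.1 and 13.4 CPM in LPS libraries and 20.5 and 20.6 CPM in control libraries (log2 fold change -0.63 ± 0.25, edgeR adjusted p = 0.23), and 2410006H16Rik had 18.9 and 34.8 CPM in LPS libraries and 42.8 and 62.5 CPM in control libraries (-0.98 ± 0.37, adjusted p = 0.21). Both had LPS libraries below the controls, as 25.8% of all genes tested did, and neither passed. Snhg1 had 35.6 and 37.9 CPM in LPS libraries and 32.1 and 32.7 CPM in control libraries. Dleu2 had 24.1 and 26.4 CPM in LPS libraries and 17.3 and 23.3 CPM in control libraries, and Mir100hg 7.88 and 19.2 CPM in LPS libraries and 5.52 and 18.5 CPM in control libraries.

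Pseudogenes resemble a coding gene, so their counts depend on how similar reads were placed. Mx1, an interferon-induced antiviral GTPase gene that is defective in most laboratory strains and is non-coding in RefSeq, had 248 and 230 counts in LPS libraries and 1 and 1 in control libraries. From the summed counts the LPS over control ratio was 257 (95% interval 70.9 to 2132, Clopper-Pearson, counting error only; edgeR adjusted p = 0.00042). Mx1 shares 96.13% identity with Mx2 over 646 bases. Gm8979, 96.15% identical over 7299 bases to Gvin1, a very large interferon-inducible GTPase, had 310 and 211 counts in LPS libraries and 7 and 18 in control libraries (log2 fold change 4.50 ± 0.41, edgeR adjusted p = 0.0029). Gvin1 itself was at 0 in each library. This need not mean that Gvin1 is silent, as the treatment of reads matching both genes is not given.

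Bambi-ps1 had 213 and 159 counts in LPS libraries and 23 and 21 in control libraries (log2 fold change 3.15 ± 0.33, edgeR adjusted p = 0.0050). Its parent Bambi, a decoy receptor of the transforming growth factor beta family, 88.61% identical over 597 bases, had 311 and 407 counts in LPS libraries and 147 and 296 in control libraries and did not pass (0.84 ± 0.28, edgeR adjusted p = 0.16). Serpina3h, in a cluster of acute-phase serpin genes, had 116 and 131 counts in LPS libraries and 6 and 29 in control libraries (2.98 ± 0.54, edgeR adjusted p = 0.028). The Serpina3h controls lay apart, and its log2 fold change was 2.39 without control replicate 1 and 4.17 without control replicate 2. Serpina3h was not called when LPS replicate 1 (3.08, adjusted p = 0.075) or 2 (2.90, 0.092) was left out, with a range of adjusted p from 1.3e-05 to 0.092 over all settings without a replicate block. Its neighbour Serpina3g, 5957 bases away, had 607 and 475 counts in LPS libraries and 3 and 1 in control libraries and was called higher.

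Gm8615 was the called pseudogene that fell, with 54 and 44 counts in LPS libraries and 209 and 178 in control libraries (log2 fold change -1.92 ± 0.33, edgeR adjusted p = 0.024). It overlaps Hmgb1 on the same strand. Hmgb1 had 1102 and 1122 counts in LPS libraries and 1215 and 2056 in control libraries and did not pass (-0.43 ± 0.20, edgeR adjusted p = 0.30). Whether Gm8615 counts include reads of Hmgb1 RNA was not tested. Gm8615 is 99.07% identical over 753 bases to Gnpda1, a glucosamine-6-phosphate deaminase gene. Gnpda1 had 22 and 21 counts in LPS libraries and 69 and 108 in control libraries (-1.91 ± 0.29, edgeR adjusted p = 0.017). Reads of the pair cannot be told apart. Without LPS replicate 1 or 2, neither was called, with log2 fold changes of -2.07 and -1.78 for Gm8615 (adjusted p = 0.11 and 0.14; range 0.00045 to 0.14 over all settings without a replicate block) and of -1.94 and -1.88 for Gnpda1 (0.12 and 0.12; range 0.0030 to 0.12).

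Most small nucleolar RNAs separated by replicate number. Both libraries numbered 2 lay above both numbered 1 for 6 of the 11 small nucleolar members, and below for Scarna10 and Scarna6; over all genes tested the shares were 20.6% and 18.7%. Snora23, an H/ACA guide of pseudouridylation, had 13 and 224 counts in LPS replicates 1 and 2 and 15 and 181 counts in control replicates 1 and 2. Snord15b, a box C/D guide of 2′-O-methylation, had 92 and 999 counts in LPS libraries and 146 and 1031 in control libraries. Snord15a had 37 and 277 in LPS libraries and 90 and 259 in control libraries. Both lie within the ribosomal protein gene Rps3, which had 2985 and 2749 counts in LPS libraries and 2930 and 3142 in control libraries. The Rps3 counts show no such split between replicates.

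Snora81, within Eif4a2, had 26 and 188 counts in LPS libraries and 24 and 157 in control libraries, and Snora74a 83 and 283 in LPS libraries and 88 and 243 in control libraries. The small Cajal body RNAs Scarna10 and Scarna6, which guide modification of spliceosomal RNAs, ran the other way: Scarna10 had 190 and 97.9 CPM in LPS libraries and 150 and 45.2 CPM in control libraries. Scarna6 had 124 and 59.7 CPM in LPS libraries and 99.6 and 35.4 CPM in control libraries. These replicate gaps run along with the marker sums of other cell types given above, and the part of cell mixture, of RNA length selection or of library preparation in them was not tested. Snord17 and Scarna2 were the members of the class with LPS libraries above both controls, as for 24.7% of all genes tested. Snord17 had 370 and 393 CPM in LPS libraries and 288 and 248 CPM in control libraries (log2 fold change 0.51 ± 0.19, edgeR adjusted p = 0.19). Scarna2 had 66.4 and 58.3 CPM in LPS libraries and 43.1 and 36.9 CPM in control libraries (0.64 ± 0.22, adjusted p = 0.17).

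Snord15a and Snord15b are printed here, from GENCODE M21, because they share a host gene and a replicate pattern; 101 of 154 aligned columns were identical. The first TGATGA, the letters of a C box, and the last CTGA, those of a D box, are in capitals. They lie at chr7:99482785-99482932 and chr7:99479563-99479707, both on the minus strand of GRCm38.
Snord15a: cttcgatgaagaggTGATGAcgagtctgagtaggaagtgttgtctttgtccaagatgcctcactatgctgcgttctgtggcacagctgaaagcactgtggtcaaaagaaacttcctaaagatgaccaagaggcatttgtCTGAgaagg
Snord15b: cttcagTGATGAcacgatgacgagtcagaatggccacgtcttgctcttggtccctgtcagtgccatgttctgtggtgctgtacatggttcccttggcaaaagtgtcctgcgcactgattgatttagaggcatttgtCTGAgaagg

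**Figure D4:**
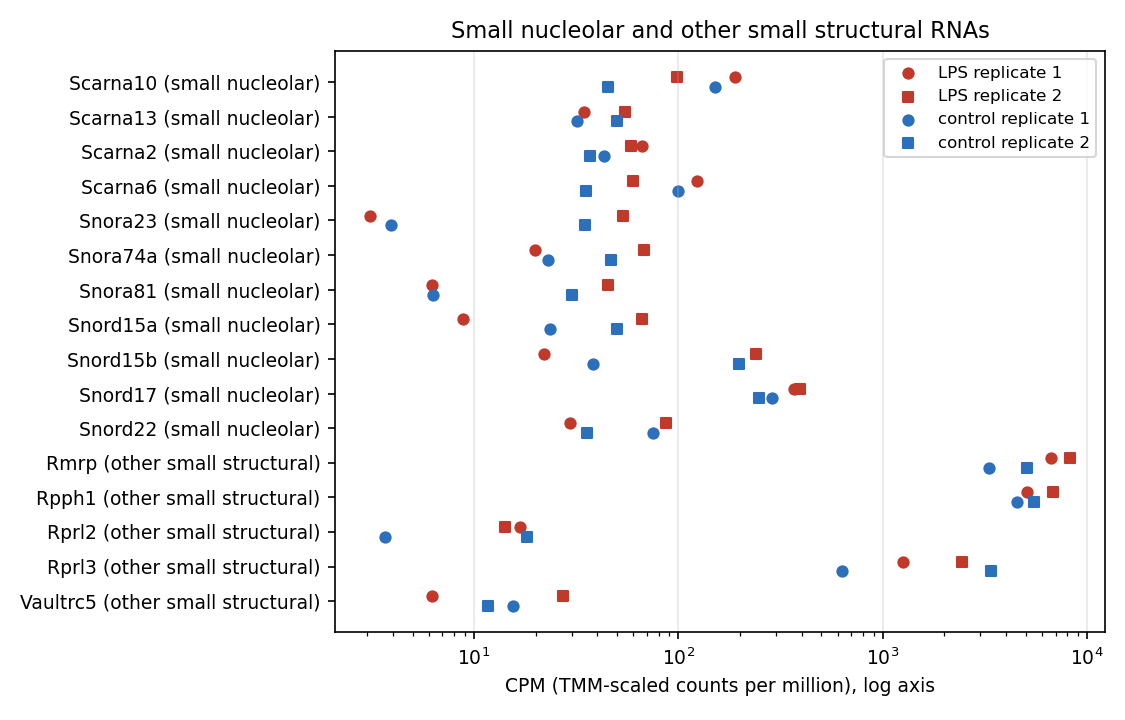
CPM of the 11 small nucleolar and 5 other small structural members in each library on a log axis, LPS in red and control in blue, replicate 1 as circles and replicate 2 as squares. For Snora23, Snora81, Snora74a, Snord15a and Snord15b the squares of both groups lie right of both circles, and for Scarna10 and Scarna6 the squares of a group lie left of its circle.

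Rmrp, the RNA of the endonuclease RNase MRP, which acts in ribosomal RNA processing, had 27973 and 34236 counts in LPS libraries and 12534 and 26342 in control libraries. After scaling this was 6679 and 8212 CPM in LPS libraries and 3295 and 5066 CPM in control libraries, without overlap, and the log2 fold change of 0.83 ± 0.27 did not pass (edgeR adjusted p = 0.16). With no filter on low counts Rmrp passed, at 0.94 with an adjusted p of 0.020, and over all settings without a replicate block the adjusted p ranged from 0.020 to 0.50. Rpph1, the RNA of RNase P, which trims transfer RNA precursors, had 5046 and 6790 CPM in LPS libraries and 4556 and 5499 CPM in control libraries, and the groups overlapped. Rprl3, an RNase P RNA-like gene 85.99% identical to Rpph1, had 5252 and 10182 counts in LPS libraries and 2410 and 17561 in control libraries. Vaultrc5, a vault particle RNA, had 6.21 and 27.3 CPM in LPS libraries and 15.5 and 11.7 CPM in control libraries. Of the proteins of RNase P and MRP, 1 of 9 tested was called, Pop4, a subunit of both, with 194 and 188 counts in LPS libraries and 68 and 117 in control libraries (1.17 ± 0.24, edgeR adjusted p = 0.043). With any single library left out Pop4 was not called (log2 fold change 1.01 to 1.32, adjusted p 0.058 to 0.25), nor with total-count scaling (0.73, 0.18), and its adjusted p ranged from 0.018 to 0.25 over the alternatives without a block.

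Several abundant lncRNAs share long stretches with other genes. In 20 of the 96 members, the transcript matched at least 5 other genes at 90% identity or more over at least 300 bases. In 12 of the 20 the LPS libraries lay below both controls, in 4 above both, and in 4 the groups overlapped, where 25.8% of all genes tested lay below and 24.7% above. The call among them was Gm8979, which was higher. The members described here were grouped after their values were seen, and no test is attached to the grouping. A130077B15Rik, which matched 126 other genes, had 373 and 324 CPM in LPS libraries and 555 and 739 CPM in control libraries (log2 fold change -0.89 ± 0.22, edgeR adjusted p = 0.075). 4930470H14Rik, with 8 such genes, had 317 and 289 CPM in LPS libraries and 536 and 533 CPM in control libraries (-0.82 ± 0.18, adjusted p = 0.051). For both, the LPS libraries lay well below the controls, and neither passed.

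Gm10845, with 12 such genes, had 104 and 88.0 CPM in LPS libraries and 169 and 203 CPM in control libraries (-0.95 ± 0.21, edgeR adjusted p = 0.056). Gm17644, with 29, had 207 and 186 CPM in LPS libraries and 327 and 332 CPM in control libraries (-0.74 ± 0.18, adjusted p = 0.072). Olfr856-ps1, an olfactory receptor pseudogene with 0 such genes, had 222 and 206 CPM in LPS libraries and 336 and 442 CPM in control libraries (-0.86 ± 0.21, adjusted p = 0.076). These 5 fell just short of the threshold and were called in some settings: without control replicate 1, A130077B15Rik (-1.09, adjusted p = 0.021), Gm10845 (-1.09, 0.037) and Olfr856-ps1 (-1.06, 0.028) passed, and with total-count scaling each of the 5 passed. Over all settings without a replicate block the adjusted p ranged from 0.016 to 0.34 for 4930470H14Rik, 0.022 to 0.33 for Gm10845, 0.021 to 0.38 for A130077B15Rik, 0.022 to 0.40 for Gm17644 and 0.028 to 0.36 for Olfr856-ps1. Kcnq1ot1, the imprinted RNA opposite Kcnq1, with 27 such genes, had 173 and 216 CPM in LPS libraries and 242 and 327 CPM in control libraries (-0.55 ± 0.24, edgeR adjusted p = 0.27). A630089N07Rik, with 6, had 74.5 and 73.9 CPM in LPS libraries and 92.3 and 126 CPM in control libraries (-0.56 ± 0.23, adjusted p = 0.25). 6820431F20Rik, with 7 such genes, had 242 and 246 CPM in LPS libraries and 236 and 266 CPM in control libraries, and its groups overlapped. How reads that match several genes were treated is not given in the sources used here.

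**Figure D5:**
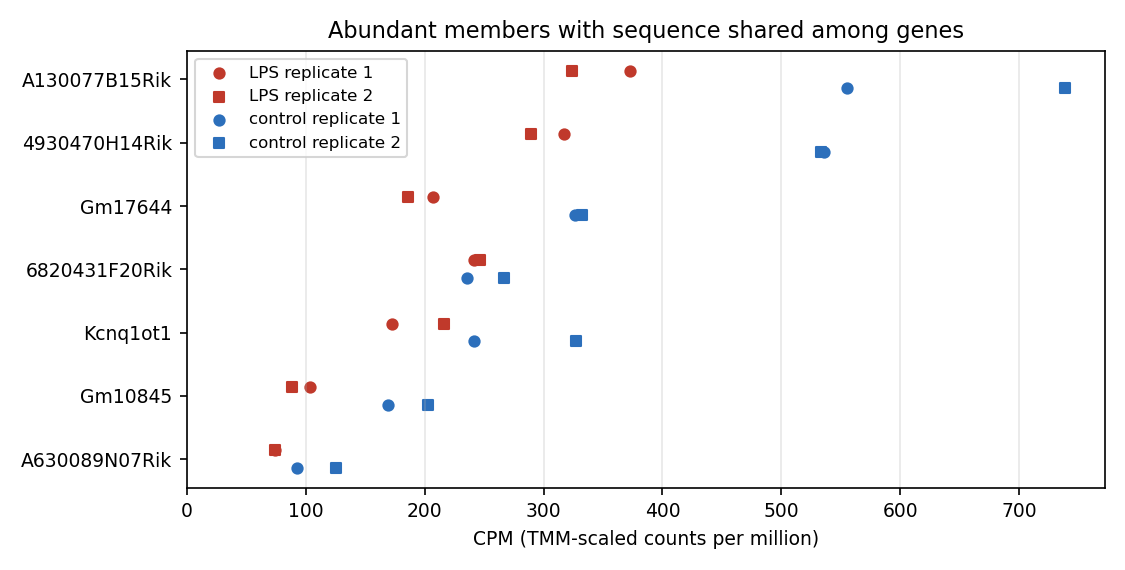
CPM in each library for 7 abundant members that share sequence with at least 5 other genes, on a linear axis from 0, LPS in red and control in blue, replicate 1 as circles and replicate 2 as squares. LPS libraries lie left of both controls in 6 rows, and in the row of 6820431F20Rik the groups overlap between 236 and 266 CPM.

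The groups overlapped for the nuclear lncRNAs Malat1 and Neat1 and for Norad. Malat1, which gathers at nuclear speckles, had 8375 and 17428 counts in LPS libraries and 8046 and 18297 in control libraries, so that replicate 2 exceeded replicate 1 in both groups. Neat1, the scaffold of paraspeckles, had 61.1 and 88.0 CPM in LPS libraries and 59.1 and 108 CPM in control libraries, again with replicate 2 above replicate 1. Of 11 paraspeckle proteins tested, 0 passed by edgeR, DESeq2, limma-trend or an unadjusted edgeR p under 0.05. The last measure was met by 21.3% of all genes tested. Of 15 such proteins listed, Nono, Smarca4 and Dazap1 were at 0 in each library and could not be tested. Norad, which binds Pumilio proteins, had 419 and 254 CPM in LPS libraries and 406 and 224 CPM in control libraries, with replicate 1 the higher in both groups.

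Of 81 tested proteins on 8 lists (RNA-binding complexes, RNA processing factors, and X inactivation partners with Y-linked genes), 4 were called, each higher in LPS libraries. This share of 4.94% stands beside 6.55% called higher over all genes tested. Of 14 tested snoRNA-particle proteins, 0 passed by edgeR, DESeq2 and limma-trend. An unadjusted edgeR p under 0.05 was found for 2 of them, or 14.3%, beside 21.3% of all genes tested. Of 8 tested signal recognition particle proteins, 0 passed by any of these. Besides Pop4, the calls were Ell2 (of 8 tested proteins of the 7SK particle and P-TEFb), Magohb (of 12 factors of nonsense-mediated decay) and Ago3 (of 12 microRNA processing proteins). Ell2, an elongation factor that works with P-TEFb, had 568 and 698 counts in LPS libraries and 86 and 199 in control libraries (log2 fold change 2.31 ± 0.32, edgeR adjusted p = 0.012; without LPS replicate 2 it was 2.15 with an adjusted p of 0.052; range 7.2e-08 to 0.052 over the alternatives without a block). Magohb, an exon junction complex subunit, had 77 and 114 counts in LPS libraries and 17 and 32 in control libraries (2.09 ± 0.36, edgeR adjusted p = 0.024). Magohb was not called when LPS replicate 1 (2.35, adjusted p = 0.050) or 2 (1.78, 0.13) was left out, or with total-count scaling (1.66, 0.062); its adjusted p ranged from 0.0010 to 0.13 over the alternatives without a block. Ago3, an Argonaute that holds microRNAs, had 638 and 540 counts in LPS libraries and 127 and 169 in control libraries (2.10 ± 0.21, edgeR adjusted p = 0.0044), and passed in each setting tried.

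A list of 31 names, drawn up for lncRNAs tied to LPS or inflammation, had 25 in the table, of which 11 are members and 19 were tested. The list also held Xist, Meg3 and Tug1, so its counts are not those of established LPS-responsive lncRNAs alone. Of the 19, 3 were higher, 1 was lower and the median log2 fold change was 0.13, beside 6.55% higher, 1.79% lower and a median of -0.05 over all genes tested. With total-count scaling the list had 2 calls and a median of -0.31, where the median of all genes was -0.48. The higher ones were Mir22hg and, not among the members, Morrbid and U90926. Morrbid, a regulator of the survival of short-lived myeloid cells, had 94 and 103 counts in LPS libraries and 11 and 32 in control libraries (log2 fold change 2.35 ± 0.41, edgeR adjusted p = 0.025; without LPS replicate 1 or 2 it was 2.42 or 2.28 with an adjusted p of 0.089 or 0.10, and 1.89 with 0.059 under total-count scaling; range 0.00028 to 0.10). U90926 had 34 and 30 counts in LPS libraries and 3 and 2 in control libraries (3.70 ± 0.52, edgeR adjusted p = 0.012; not called without LPS replicate 1, at 3.62 and 0.050; range 0.00075 to 0.050). The lower one was F630028O10Rik, described above.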

How the data were processed

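RNA from 4 libraries of primary mouse microglia was depleted of ribosomal RNA and sequenced as directional paired ends, per the labels' protocols. Per the submitters' processing notes, the tools were HTSeq 0.6.1, TopHat2 2.0.10, Cufflinks 2.2.1, Trimmomatic 0.33 and CASAVA 1.8.2, with build mm10. Which tool did what, and with which strand setting or annotation, is not given in the sources used here. Nor is the treatment of reads shared by several rows, so a gene without counts, such as Itgam or Nono, may still be expressed. The authors deposited whole-number counts per RefSeq accession, 1 column per library. Although the name of the file speaks of normalization, the values are whole numbers with unequal totals and were treated as counts.

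Accessions were named with RefSeq (GRCm38.p6, 92 members) or GENCODE M21 (4 members) and summed per gene. GENCODE gives 2610001J05Rik and 0610012G03Rik, both in the intergenic class here, as protein-coding genes. Of 48 non-coding accessions without a name, 7 reached a mean of 50 counts and were left out, 1 of which held 20.0% and 24.4% of counts in LPS libraries and 24.8% and 23.7% in control libraries. The 1 row left out for its ribosomal name held fewer than the minimum. Unnamed accessions could not be checked for ribosomal RNA by name, so the share of ribosomal RNA in the libraries was not determined. The most abundant unnamed row may itself be ribosomal RNA. Genes with a mean of at least 10 counts were tested with edgeR 4.0.16 (R 4.3.3; quasi-likelihood, TMM, two-sided, all 4 libraries, no covariate), adjusted by Benjamini-Hochberg at 0.05. A standard error is the size of the log2 fold change divided by the square root of F. Where a group had 1 to 3 counts, a ratio from counts with a 95% Clopper-Pearson interval is given; such intervals cover counting error only. With 1 library left out, the lone sample is assumed to vary like the other group. A chi-square of replicate counts was 13.1 (LPS) and 16.7 (control) times its degrees of freedom, beyond sampling noise. Sequence similarity was computed with blastn 2.17.0 on GENCODE transcripts. Classes came from the annotation: small nucleolar, other small structural, microRNA, host gene, antisense, sense-overlapping, pseudogene, intergenic. Named members were those called, the 10 most abundant, the 3 most abundant of a class, those on the lncRNA list, those at the abundance limit and the 5 with the widest replicates. Members and lists were chosen with earlier results of these data known. Alternatives were DESeq2 1.42.0, limma-trend (limma 3.58.1) on log2 CPM with a prior count of 1, other scalings and filters, single accessions, a replicate block and each library left out.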

Additional observations from a re-analysis of the deposited data

How the results depend on the processing

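All 18 called members kept their direction in every setting tried, and 11 were called in every setting without a replicate block. With total-count scaling 24 of the 96 members changed sign, 0 of them among the 32 members whose log2 fold change is printed, and those 32 kept their sign in each other setting. The reported counts were 16 members higher and 2 lower. The count of lower members was 12 with total-count scaling, 4 without the unnamed accessions, ribosomal RNA rows and Lars2, 8 with a minimum mean of 50 counts, 5 with DESeq2 and 4 with limma-trend; total-count scaling drops the composition factor, and for the others the cause was not tested. Relative log expression factors left 16 and 2. Taking members with a mean of at least 100 counts left 10 higher, by construction from 57 members. Leaving out 1 library gave 10 to 17 higher members, 1 to 5 lower members and 1 to 3 calls in the partner protein lists (4 with all libraries). The low counts came without LPS replicate 1 (10 higher, 1 lower, 2 partner proteins) and LPS replicate 2 (11, 1 and 1), and the 5 lower members without control replicate 1.

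Libraries of the 2 groups share the replicate numbers 1 and 2, and nothing in the labels says that a number marks a shared culture or day. The deviations of same-numbered libraries from their group means correlated at 0.644 across 9548 genes, which are not independent. With the replicate number as a block, 29 members were called higher and 26 lower, and 19 genes of the partner protein lists were called; over all genes the block gave 1677 higher and 1258 lower calls, against 625 and 171 without it. With 2 pairs, the block is given as a count only.

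Depth limits the low members: 1 count equals 0.239 and 0.240 CPM in LPS libraries and 0.263 and 0.192 CPM in control libraries.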

Other observations

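Of the members below the named ones, 2810025M15Rik had 40 and 55 counts in LPS libraries and 103 and 109 in control libraries, and it lies opposite Rasal2, with 294 and 415 counts in LPS libraries and 504 and 732 in control libraries. C920009B18Rik had 45.4 and 25.9 CPM in LPS libraries and 18.9 and 15.2 CPM in control libraries. Dubr had 22.4 and 14.2 CPM in LPS libraries and 9.73 and 9.04 CPM in control libraries. For these members the groups did not overlap, and the edgeR test was not passed. Ipw, an imprinted lncRNA, had 22 and 108 counts in LPS libraries and 15 and 60 in control libraries, so replicate 2 was the higher in both groups.

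Gm12070, 99.90% identical to Gapdh over 1002 bases, had 38.4 and 46.5 CPM in LPS libraries and 18.1 and 51.3 CPM in control libraries, while Gapdh, a glycolytic enzyme gene, had 2 and 2 counts in LPS libraries and 1 and 5 in control libraries. Morf4l1-ps1, 99.79% identical to Morf4l1 over 969 bases, had 124 and 121 counts in LPS libraries and 84 and 125 in control libraries, while Morf4l1 had 0 and 3 counts in LPS libraries and 4 and 2 in control libraries. In both pairs the non-coding copy holds most of the counts, and the members' values cannot be told apart from reads of the coding gene.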
